A study of Mus musculus with 4 samples.

Results

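The clustered protocadherins are 57 protein-coding genes in 3 neighbouring clusters on mouse chromosome 18. They were taken from the GENCODE annotation as the protein-coding genes of that chromosome whose symbols begin with Pcdha, Pcdhb or Pcdhg, and they are 57 of the 21938 protein-coding genes that were given a start site. The members comprised 14 alpha genes, 22 beta genes and 21 gamma genes, all on the plus strand of GRCm38 between positions 36930184 and 37841873, a span of 911.69 kb. Every ATAC-seq peak with its centre in that span or within 200 kb on either side was collected, which made a window of 1311.69 kb (chr18:36730184-38041873). The symbol Pcdha11 stands on 2 gene records in this annotation, and both were kept. Pcdhgb8, annotated as a pseudogene, is not a member, and neither are Gm42416, Gm37013 and Gm37388, read-through gene models that start among the alpha genes and run into the gamma cluster.

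The study asked how the transcription factors TFAP2A and TFAP2B (AP-2) shape accessible chromatin in the early face. Surface ectoderm was dissected from facial prominences at E11.5 and profiled by ATAC-seq, which finds open DNA by where a transposase cuts it, in 2 control and 2 EDKO libraries. EDKO embryos carried Crect, a Cre transgene active in early ectoderm, with Tfap2a flox/flox and Tfap2b flox/flox, so both genes were deleted in Crect-expressing ectoderm, while control littermates were Tfap2a flox/+; Tfap2b flox/+ without Crect. All embryos thus carried floxed alleles of both genes, and the controls kept a wild-type copy of each.

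Calling the control libraries jointly gave 65467 control peaks, and calling them with the EDKO libraries as background gave 3103 AP-2-dependent regions, DNA more accessible in control than in EDKO ectoderm. Because the libraries were combined before peaks were called, no value has an error between libraries, and the read coverage under a peak is unknown. Beyond the authors' own comparison of control with EDKO libraries, no group could be tested against another. Control peaks stood within 1 kb of the start sites of 12 of 12 surface ectoderm markers, with a median −log10 p of 10.2 at the peak summit. They also stood at 6 of 6 mesenchyme markers (median 5.14) and 6 of 6 neural markers (median 4.66), but at only 1 of 4 endothelial, 1 of 4 blood and 1 of 2 muscle markers. Over all protein-coding genes 65.5% of start sites had such a peak, so a peak at a marker does not show that its cell type was present. Whether other cells had a part in the protocadherin peaks was not tested.

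Clustered protocadherins are cell-surface adhesion proteins of the cadherin superfamily that bind the same isoform on an opposing membrane. They are best known from neurons, where each cell expresses its own small set of isoforms, and this lets the branches of a neuron recognise themselves. Every alpha and gamma variable exon has a promoter of its own and is spliced to constant exons shared by its whole cluster, whereas the beta genes encode their protein in a single exon. Promoter choice among the alternate genes is known to involve CTCF, cohesin and DNA methylation. The C-type genes (Pcdhac1, Pcdhac2, Pcdhgc3, Pcdhgc4 and Pcdhgc5) lie at the downstream ends of the alpha and gamma clusters and are expressed more uniformly between neurons than the alternate genes.

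Most protocadherin start sites had no called peak in control facial ectoderm. Of the 57 start sites, 8 (14%) had a control peak within 1 kb, measured from the start site to the nearest base of the peak. The 95% Wilson interval ran from 7.29% to 25.3%; like all such intervals here it covers counting error only, and genes of 1 cluster are not independent of each other. Across all protein-coding genes, 14373 of 21938 start sites (65.5%) had such a peak, and on chromosome 18 the count was 356 of 513 (69.4%). The members with a peak were Pcdhac1, Pcdhac2, Pcdhb1, Pcdhga7, Pcdhgb6, Pcdhgb7, Pcdhgc3 and Pcdhgc4. In all 8 the peak covered the start site itself.

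**Figure D1:**
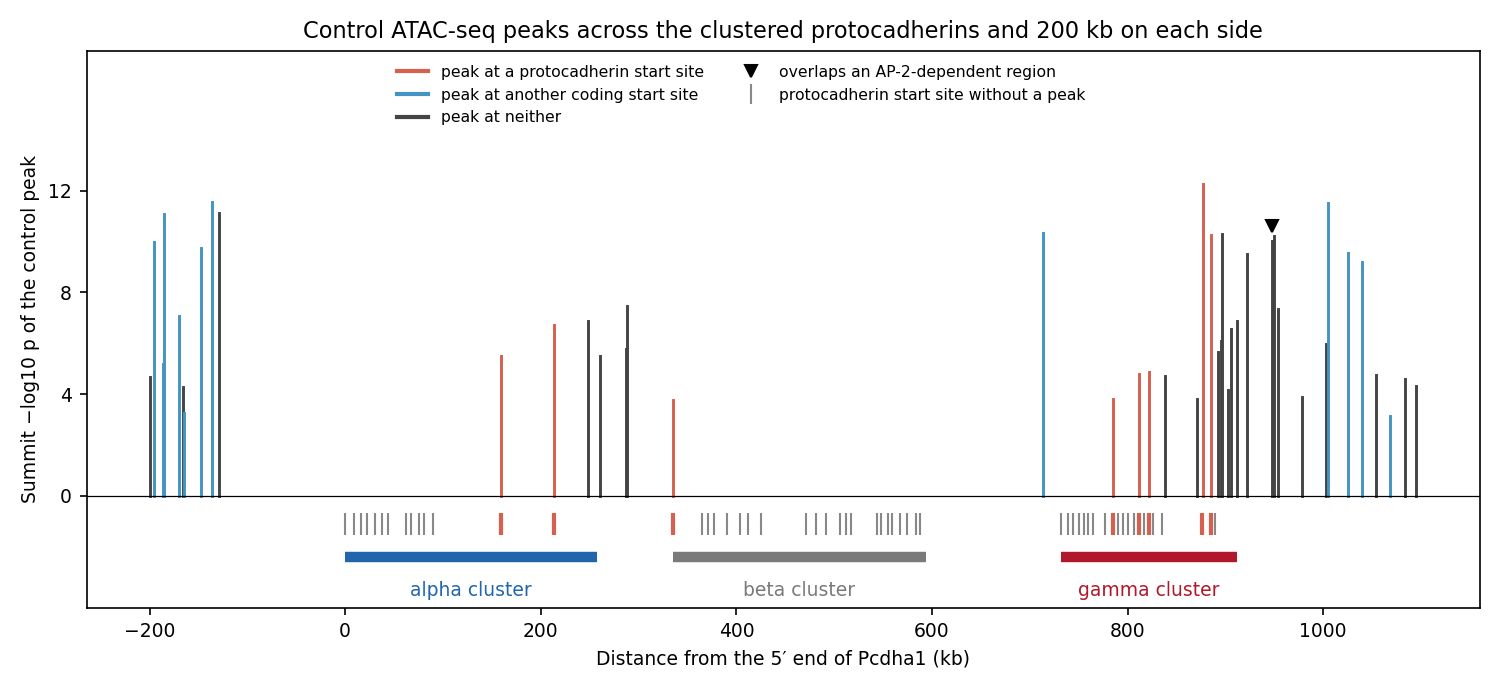
Control peaks across the window, with the distance from the 5′ end of Pcdha1 in kb on the x axis and the summit −log10 p of each peak as the height of a line. Ticks under the baseline are protocadherin start sites (red with a peak, grey without), coloured bars are the 3 clusters, and the triangle marks the control peak that overlaps an AP-2-dependent region. The 12 alternate alpha and the Pcdhb2 to Pcdhb22 start sites lie in stretches without any peak, and the tallest lines at member start sites are those of Pcdhgc3 (12.3) and Pcdhgc4 (10.2).

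The members with a peak were unevenly spread over the gene classes. The C-type genes had a control peak at 4 of 5 start sites (80%, Wilson interval 37.6% to 96.4%), against 4 of the 52 other members (7.69%, interval 3.03% to 18.2%). These shares are given as a description, with no test between classes. None of the 12 alternate alpha genes had a peak (upper end of the same interval 24.2%). These 12 are all the genes of that class and lie in 1 stretch without a peak, so the interval extends to no larger group. The beta genes had 1 in 22 (4.55%), the A type of the gamma genes 1 in 12 (8.33%) and the B type 2 in 6 (33.3%, interval 9.68% to 70.0%).

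Genes around and outside the clusters were counted the same way. Of the 15 other protein-coding genes with a start site in the window, read-through models aside, 14 (93.3%) had a control peak. They included all 8 genes upstream of Pcdha1 and all 5 downstream of Pcdhgc5. Zmat2, the nearest gene upstream, had a summit −log10 p of 11.6, and Diaph1, the nearest downstream and the gene of a formin that nucleates actin filaments, had 11.5. Between the beta and gamma clusters, Taf7, a subunit of the general transcription factor TFIID, had a peak of 10.3, whereas Slc25a2, a mitochondrial ornithine carrier gene beside it, had none within 1 kb and lay 4.951 kb from the nearest. None of the 3 read-through models had a peak at its start site.

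A larger share of the protocadherin genes outside the clusters had a peak than of those within, given as a description with no test. Of 12 non-clustered protocadherin genes, 10 (83.3%) had a control peak, and Pcdh12 and Pcdh15 did not. Of 2 other clustered families, the Hox transcription factor genes had a peak at 29 of 39 start sites (74.4%) and the Hist1 histone genes at 52 of 54 (96.3%). Genes known to act on protocadherin promoter choice or silencing, among them Ctcf, Rad21, Smchd1, Setdb1 and Dnmt3b, had a peak at 12 of 12 start sites, with summit −log10 p from 8.91 to 14.4. Over all genes 65.5% of start sites had a peak, and 91.5% of those with 55% GC or more within 250 bp. The median GC content of these regulators was 68.2%, so 12 of 12 stands close to that background.

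**Figure D2:**
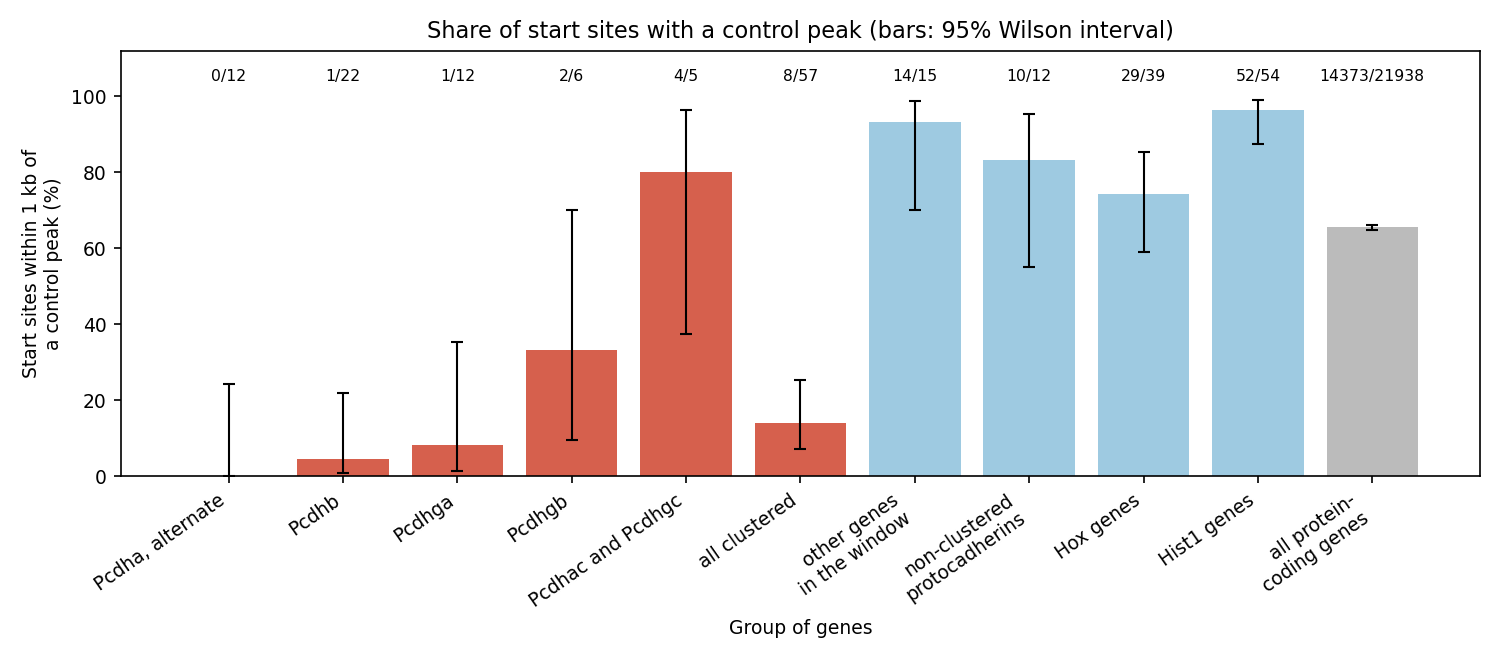
Share of start sites within 1 kb of a control peak in percent (y axis) for each group of genes (x axis), with 95% Wilson intervals as error bars and the counts above. Red bars are clustered protocadherins, blue bars comparison groups and the grey bar all protein-coding genes. The clustered genes stood at 14% and all genes at 65.5%, while the C-type genes taken alone reached 80%.

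In the alpha cluster, both C-type genes had a peak. At Pcdhac1 (start site chr18:37090013) the peak spanned chr18:37089685-37090126, that is 442 bp from 328 bp upstream to 113 bp downstream of the start site, with its summit 11 bp downstream at a −log10 p of 5.52. Its area under the curve, the sum of −log10 p above the caller's threshold, was 691, and 57.0% of all control peaks had a lower summit. At Pcdhac2 (start site chr18:37143503) the peak was wider, at 1370 bp (chr18:37143289-37144658), with its summit 391 bp downstream in the 5′ UTR, a −log10 p of 6.72 and an area of 2817. Both peaks sat at the upstream edge of the variable exon, which in these genes encodes the extracellular cadherin repeats, the transmembrane segment and the start of the cytoplasmic tail.

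The 12 alternate alpha genes lay far from any control peak. Pcdha1, the first gene, was 128.096 kb from the nearest peak and Pcdha12, the last alternate gene, 69.536 kb. All 12 stood in 1 peak-free stretch of 287.495 kb (chr18:36802190-37089684) that ended at the Pcdhac1 peak and also held the start sites of the 3 read-through models. Stretches at least this long made up 1214 (1.86%) of the 65277 gaps between neighbouring control peaks on the chromosomes, whose median length was 13.032 kb, and 52 gaps held at least as many start sites.

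Only the first gene of the beta cluster had a peak. Pcdhb1 (start site chr18:37264938) had a peak of 458 bp (chr18:37264717-37265174) from 221 bp upstream to 236 bp downstream, with its summit 7 bp downstream. The summit −log10 p of 3.76 and the area of 310 were low for the list, with 14.6% of control peaks having a lower summit. When peaks needed an area of 500 or more, this peak was lost and the beta cluster had none. The next gene, Pcdhb2, had no peak and started 29.638 kb beyond the edge of the Pcdhb1 peak.

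From Pcdhb2 to Pcdhb22, 21 start sites over 229.668 kb had no control peak among them. They lay in a stretch of 378.521 kb (chr18:37265175-37643695) without a peak, which ran on past Slc25a2 to the Taf7 peak. Stretches of that length or more were 785 (1.2%) of all gaps, and 24 gaps held at least as many start sites. The farthest of all members was Pcdhb14, at 182.482 kb from a control peak, and the last beta gene, Pcdhb22, was 125.825 kb away.

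In the gamma cluster, peaks were weak or missing over the A and B genes. The first gene, Pcdhga1, lay 17.165 kb from the nearest control peak, and it shared a stretch of 70.057 kb without a peak with the next 7 genes, up to Pcdhga6. Pcdhga7 (start site chr18:37714764) had the narrowest peak at a member, 350 bp (chr18:37714686-37715035), with its summit 8 bp upstream at a −log10 p of 3.81 and an area of 279, and this peak too was lost at an area of 500 or more. The next 4 genes, Pcdhgb4 to Pcdhga9, again had none.

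The B genes Pcdhgb6 and Pcdhgb7 had peaks that were much alike. At Pcdhgb6 (start site chr18:37742094) the peak of 631 bp (chr18:37741895-37742525) had its summit 15 bp upstream, a −log10 p of 4.78 and an area of 655. At Pcdhgb7 (start site chr18:37751600) the peak of 567 bp (chr18:37751517-37752083) had its summit 5 bp downstream, a −log10 p of 4.85 and an area of 643. Pcdhga10, which lies between them, had no peak and was 4.468 kb from the nearest. These are also the member peaks with the most repeated sequence, since 30.0% and 33.5% of their 31-base words occur more than once in the assembly, against 0% in the other 6, and the authors let a read be placed at up to 10 positions.

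The downstream end of the gamma cluster held the strongest control peaks at start sites of the family. Pcdhgc3 (start site chr18:37806410) had a peak of 3298 bp (chr18:37805917-37809214), wider than 99.0% of control peaks, that ran from 493 bp upstream to 2804 bp downstream and so over the whole variable exon. Its summit lay 54 bp upstream at a −log10 p of 12.3, with an area of 9586, and 96.5% of control peaks had a lower summit. Pcdhgc4 (start site chr18:37815079) followed with 2704 bp (chr18:37813969-37816672), a summit 250 bp downstream at a −log10 p of 10.2 and an area of 6557. Its peak was wider than 98.0% of control peaks, and 90.2% had a lower summit.

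Pcdhgc5, the last gene of the family, was the C-type gene without a peak at its start. The nearest control peak (chr18:37821762-37823258, summit −log10 p of 5.66) began 2.249 kb downstream of its start site, near the end of its variable exon, and had its summit in the intron behind it. This was the shortest distance among the 49 members beyond 1 kb. Next came Pcdhga12 at 2.423 kb, Pcdhga11 at 3.648 kb, Pcdhga10 at 4.468 kb and Pcdhga9 at 4.959 kb. No member lay between 1 kb and 2 kb from a peak, so the division of the members did not turn on where the limit was set in that range.

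**Figure D3:**
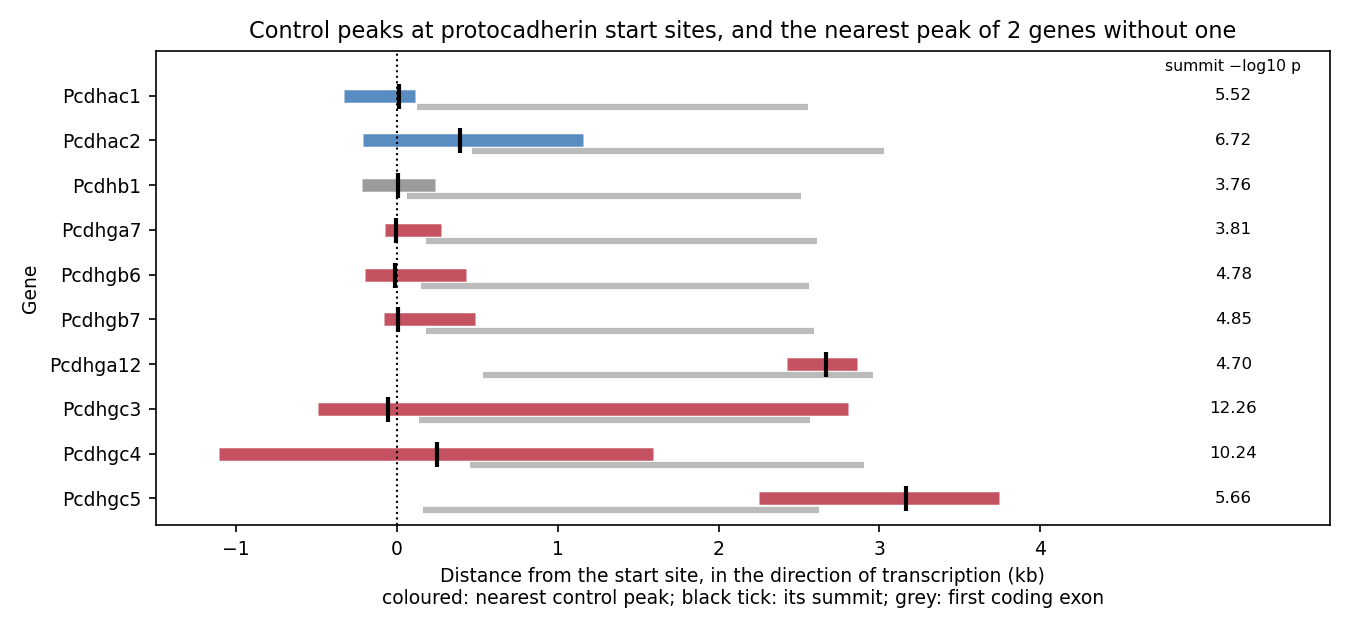
Position of the nearest control peak (coloured bar) and its summit (black tick) relative to the start site, in kb in the direction of transcription, for the 8 members with a peak and for Pcdhga12 and Pcdhgc5. Grey bars are first coding exons, and the summit −log10 p stands at the right. At Pcdhgc3 the peak of 3298 bp covers the whole exon, whereas the bars of Pcdhga12 and Pcdhgc5 begin 2.423 kb and 2.249 kb beyond the start site.

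Ordered by summit −log10 p, the members ran Pcdhgc3, Pcdhgc4, Pcdhac2, Pcdhac1, Pcdhgb7, Pcdhgb6, Pcdhga7 and Pcdhb1, so that the 4 C-type genes came first. Without an error between libraries, it cannot be said which neighbours in this order differ. The median over the 8 was 5.18, against 9.53 over the 14373 start sites with a control peak and 9.76 over the 14 neighbours. In the comparison families it was 4.67 over the 29 Hox genes with a peak, 11.7 over the 52 Hist1 genes and 9.42 over the 10 non-clustered protocadherins. Low summits at start sites were thus not particular to the clustered protocadherins. The Pcdhgc3 peak was stronger than 84.2% of the peaks at start sites of all genes and the Pcdhgc4 peak than 59.3%, but the Pcdhac2 peak than only 20.7% and the Pcdhac1 peak than 11.8%. Those of Pcdhb1, Pcdhga7, Pcdhgb6 and Pcdhgb7 exceeded between 2.15% and 7.84% of them.

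Most members without a peak were far from one. Of the 49, 42 lay more than 10 kb from any control peak and 21 more than 100 kb, with a median of 84.482 kb. Thus 85.7% and 42.9% of the members without a peak were beyond these distances, against 70.9% and 24.2% of the 7565 start sites of all genes without a peak. The 7 members between 1 and 10 kb were all gamma genes.

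**Figure D4:**
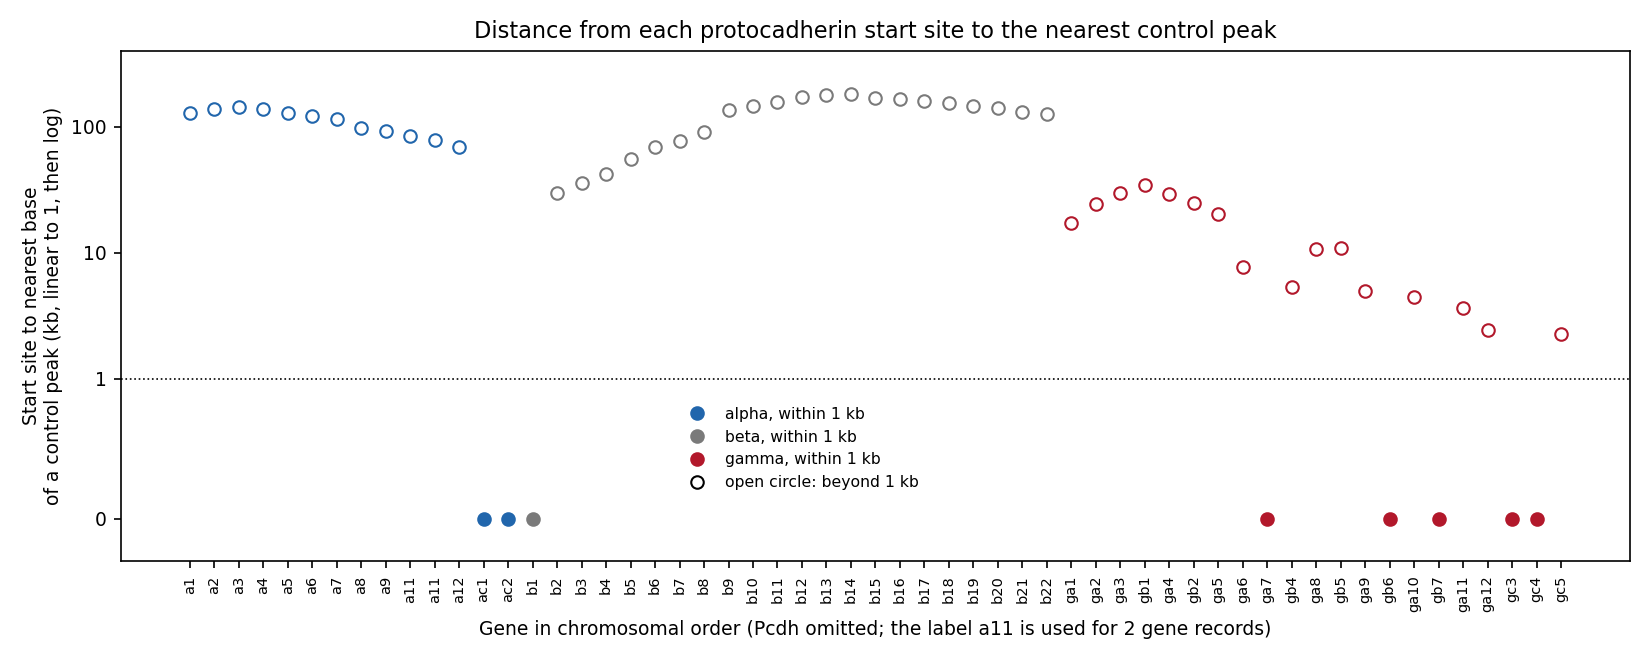
Distance from each member's start site to the nearest base of a control peak in kb (y axis, linear up to 1 kb and logarithmic beyond), with the genes in chromosomal order (x axis). Filled circles are the 8 members with a peak within 1 kb (dotted line) and open circles the 49 without, coloured by cluster. The alternate alpha genes and Pcdhb2 to Pcdhb22 lie between 29.638 and 182.482 kb from a peak, and the gamma genes at 34.453 kb or less.

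Control peaks of every kind were then counted along the window. It held 44 control peaks, of which 20 had their centre in the span of the clusters. Of these 20, 8 stood at a member's start site, 1 at Taf7 and 11 at no protein-coding start site. Of the 11, 7 lay in the gamma cluster, 1 in the alpha cluster, 3 between the alpha and beta clusters and 0 in the beta cluster. Counting all peaks, those at start sites included, the gamma cluster held 12 control peaks, or 6.66 per 100 kb, the alpha cluster 3, or 1.17 per 100 kb, and the beta cluster 1, or 0.385 per 100 kb. The genome as a whole had 2.40 per 100 kb, and the flanks of 200 kb had 5 per 100 kb upstream and 7 per 100 kb downstream. By share of bases under a peak, the gamma cluster stood at 8.14%, the alpha cluster at 0.968% and the beta cluster at 0.0913%, against 1.89% of the genome. With only peaks of an area of 500 or more, the alpha cluster kept its 3 peaks and 1.17 per 100 kb, the beta cluster had 0, the gamma cluster had 5.55 per 100 kb and the genome 1.51.

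Within the gamma cluster the peaks were crowded at the C-type end. The 35.51 kb from the start of the Pcdhgc3 record to the end of the cluster held 7 control peaks, 19.7 per 100 kb, and 33.7% of its bases were under a peak. The 144.571 kb before it, with 18 A and B genes, held 5, or 3.46 per 100 kb, and 1.85% of its bases were covered. With only peaks of an area of 500 or more, this stretch held 3, or 2.08 per 100 kb, and the C-type end still 7. Past the Pcdhgc4 peak, one control peak (chr18:37824860-37825577, summit −log10 p of 6.08) had its summit in a constant coding exon shared by all 21 gamma members. The next one (chr18:37825805-37827357) was the strongest of the 11 peaks away from protein-coding start sites, with a summit −log10 p of 10.3 in the intron behind that exon. Beyond the 3′ end of the cluster, a peak of 2031 bp (chr18:37841251-37843281, 6.87) reached back over the last bases of the gamma genes.

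The other 6 of the 11 peaks at no protein-coding start site lay upstream of Pcdhgc3. In the alpha cluster, a peak in the intron after Pcdhac2 (chr18:37178213-37178892, summit −log10 p of 6.88) had its summit 7 bp from the start of Gm10544, a gene model that is not protein-coding. Between the alpha and beta clusters stood 3 peaks: chr18:37190270-37190924 (5.50), chr18:37217144-37217566 (5.78) and chr18:37217910-37218518 (7.45). In the gamma cluster, the peak nearest to Pcdhga12 (chr18:37768003-37768438, 4.70) had its summit in the coding exon of that gene, 6 bp from the start of Gm26672, another gene model that does not encode protein. The weakest of the 6 (chr18:37800843-37801089, 3.81) lay in an intron of the A and B genes, 5.478 kb before the Pcdhgc3 start site.

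No AP-2-dependent region lay within the clusters. Of the 3103 regions, 1 was in the window, at chr18:37877229-37877523, and it stood in the downstream flank in an intron of Diaph1, with a summit −log10 p of 4.95 in the comparison with EDKO and a width of 295 bp. The closest member start site, that of Pcdhgc5, was 57.716 kb away. The region lay inside a control peak of 470 bp (chr18:37877155-37877624, 10.0). That was the only one of the 44 control peaks in the window to overlap a region, and over the whole list 2932 of 65467 control peaks (4.48%) did so, so that 1 of 44 also stands close to the background. None of the 57 members had a region within 1 kb of its start site, against 155 of all 21938 start sites (0.707%), so that a count of 0 among 57 stands close to the background. A peak with no overlapping region was not shown to be equal in control and EDKO ectoderm, because the list holds only regions that passed the caller's threshold.

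Base composition around the start sites was then set beside the peaks. Within 250 bp on each side, the median GC content was 53.6% (range 47.3% to 61.3%) at the 8 start sites with a peak and 43.1% (32.9% to 54.1%) at the 49 without. Over all genes the medians were 63.1% with a peak and 46.9% without. At Pcdha1, Pcdha5, Pcdha9 and Pcdhb8 the start site used was the first base of the coding exon. The downstream side of those windows was therefore all coding sequence. The CpG observed/expected ratio, which compares the number of CG dinucleotides with that predicted from the base content, had a median of 0.614 (0.465 to 0.766) at members with a peak and 0.529 (0.069 to 1.06) at members without, so that the second range enclosed the first. Start sites without a peak across all genes had a median ratio of 0.175, so the protocadherin start sites without a peak had a ratio closer to that of all genes with a peak (0.780) than most other start sites without one did.

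Set against start sites of like CpG ratio, few members had a peak. Between a ratio of 0.6 and 0.8, 96.4% of all start sites had a control peak, but 5 of 20 members (25%). From 0.4 to 0.6 the values were 74.7% of all start sites and 3 of 20 members (15%). Among the alternate alpha genes, with a median ratio of 0.651, none had a peak, whereas the beta genes were lower, at a median of 0.384. Set against GC content alone the difference was smaller. At 45% to 50% GC, 25.6% of all start sites and 3 of 17 members (17.6%) had a peak, at 50% to 55% it was 50.7% and 2 of 5 members, and at 55% or more 91.5% and 3 of 3. From 40% to 45% GC, where 25 members lay, 11.8% of all start sites and none of the members had one.

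**Figure D5:**
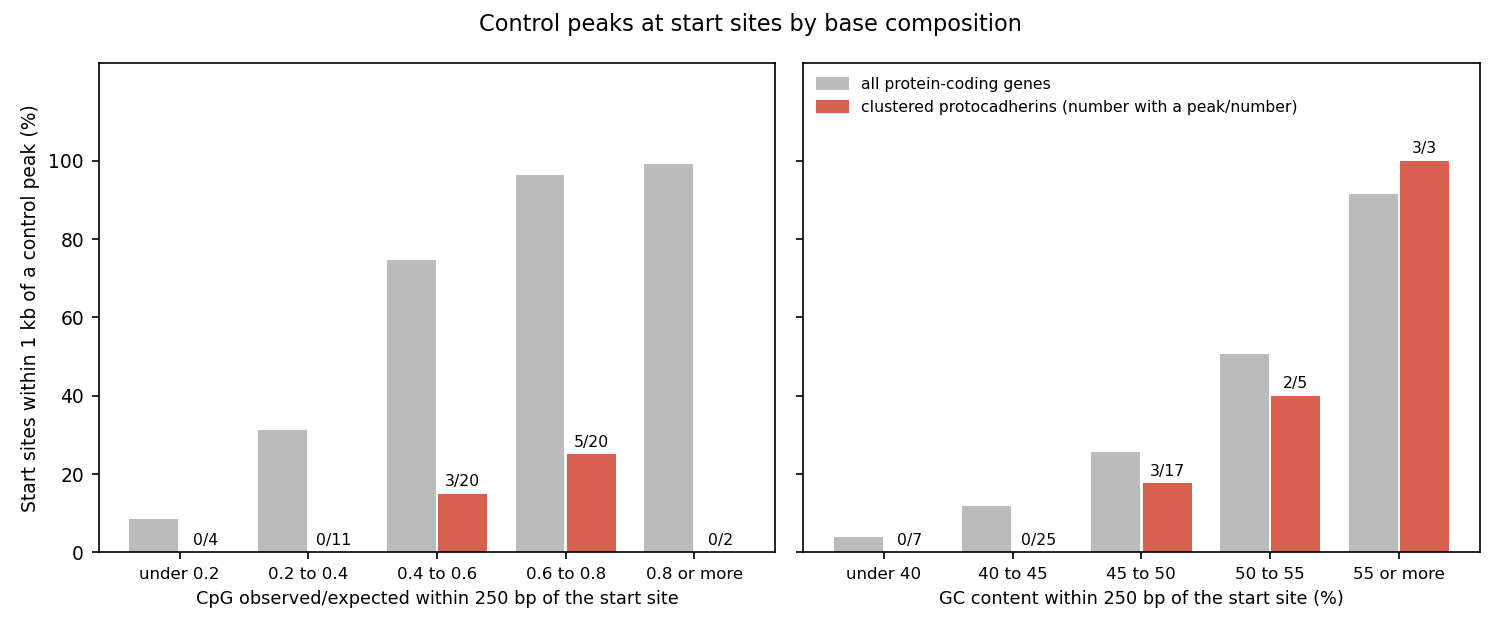
Share of start sites within 1 kb of a control peak in percent (y axis) by CpG observed/expected ratio (left) and by GC content in percent (right) within 250 bp of the start site. Grey bars are all protein-coding genes and red bars the clustered protocadherins, with the number with a peak and the number in the bin above. At a CpG ratio of 0.6 to 0.8, 96.4% of all start sites but 5 of 20 members had a peak, while at 55% GC or more all 3 members did.

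Strings known from CTCF and AP-2 sites were searched on both strands. A long CTCF consensus, matched as a single string, occurred within 250 bp of 1 of the 57 start sites and at 1.26% of all start sites. The member was Pcdhb8, which had no peak and whose start site was its first coding base. A shorter CTCF string, AGGNGGC, occurred at 19 of 57, namely 2 of the 8 with a peak (25%) and 17 of the 49 without (34.7%). Over all genes it occurred at 48.2% of start sites, namely 58.3% of those with a peak and 29.1% of those without. None of the 20 control peaks in the span of the clusters had the long string within 100 bp of its summit, where 6.21% of all control peaks had it, so that a count of 0 among 20 stands close to the background. Anywhere in the peak, it occurred in 1 of the 20, between the alpha and beta clusters (chr18:37217144-37217566). No share over all control peaks is given for this wider search, so that count is a description only. The AP-2 string GCCNNNGGC stood within 100 bp of the summit at 3 of the 8 member peaks, those of Pcdhac1, Pcdhac2 and Pcdhb1, and at 14.4% of all control peaks. It stood at 2 of the 12 other control peaks in the span (16.7%) and at 6 of all 44 in the window (13.6%). A match is a description of letters in a window, and its absence says nothing about where a factor was bound.

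Repeated sequence, which could hide or share reads, was measured because the variable exons resemble one another. At all 57 start sites and all 44 control peaks the median 31-base word occurred once in the assembly. The share of words that occur more than once within 500 bp of the start site had a median of 22.5% (range 9.89% to 29.0%) in the alternate alpha genes, 19.9% (0% to 29.5%) in the gamma B genes, 2.21% in the gamma A genes and 0% in the beta (up to 16.1%) and C-type genes. The part of repeated sequence in the peak calls was not tested.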

How the data were processed

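The deposited peak lists were used as the authors made them: adapters were trimmed with NGmerge, reads aligned to mm10 with Bowtie2 (up to 10 placements per read) and peaks called with Genrich, the control libraries together for the control peaks and against the EDKO libraries for the AP-2-dependent regions. Genrich gave each peak a score capped at a maximum and an area under the curve, also a score of the authors' call (at least 200.0 in the control list). The deposited −log10 p at the summit is not adjusted for the number of positions. The offset of the summit is the other deposited value. Values of 1 list were not set against those of the other. The study's methods state a target depth per library, but read coverage under each peak is not part of these lists.

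Coordinates count from 1 on GRCm38 with GENCODE mouse release 21. Each gene had 1 start site, the 5′ end of its principal APPRIS transcript. Overlaps count from 1 bp, shares carry 95% Wilson intervals, and base composition, strings and word counts were read from the reference. No test was run. Members with a peak within 1 kb, C-type genes and the first and last gene of each cluster were named with full values. The members and lists were chosen with earlier results of these data known, and the bins of base composition after values had been seen. The programs (Python 3.11.15, numpy 2.4.6, matplotlib 3.10.9) were tested on simulated data, with 0 differences from direct counts over 1000 intervals and 500 start sites. For 14 results, 41 alternative values were computed.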

Additional observations from a re-analysis of the deposited data

How the results depend on the processing

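Each list is 1 combined call of its libraries, so neither a replicate nor its error could be removed or shown, and the coverage under weak peaks such as those of Pcdhb1 and Pcdhga7 is not in the lists. No paired analysis was possible because the libraries carry no values of their own in the lists. The count of 8 members with a peak held for distances of 500 and 2000 bp, for summits, and for other choices of start site. It was 7 by the centre of the peak (without Pcdhgc3) and 6 when peaks needed an area of 500 or more (without Pcdhb1 and Pcdhga7). Over all genes the count ran from 13512 to 14877. Without flanks the window held 20 control peaks, 0 AP-2-dependent regions and 0 overlaps, and with flanks of 100 kb 28 control peaks. With areas of 500 or more there were 0 regions and 0 overlaps, the genome had 1.51 control peaks per 100 kb, the beta cluster had 0 per 100 kb (0 relative to the genome), and the alpha cluster stood at 0.773 of the genome in place of 0.486. By bases covered, the beta cluster stood at 0.0483 of the genome in place of 0.161, and the gamma cluster at 4.31 in place of 2.78. The long CTCF consensus occurred at 2 start sites within 500 bp, and the short string at 19. The cause of these shifts was not tested beyond what each setting leaves out.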

Other observations

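Gene-rich stretches without any control peak were not particular to the protocadherins. Over all chromosomes, 67 gaps between neighbouring control peaks held at least 12 protein-coding start sites, and the 2 that hold the alternate alpha genes (15 start sites with the read-through models) and Pcdhb2 to Pcdhb22 (22 with Slc25a2) are among them. In 32 of the 67 the most frequent family was Olfr, the olfactory receptors, in 5 Vmn, the vomeronasal receptors, and in 10 gene models named Gm. The remaining gaps were led by other families, among them Krtap, Defa, Lce and Serpina. The share of each family among all start sites was not counted, so these counts are a description only. Why such stretches lack a control peak was not tested.

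The sequence of the variable exons varied between classes as well. The median share of 31-base words of the first coding exon that occur more than once in the assembly was 22.2% in the alternate alpha genes (17.9% to 39.2%), 17.4% in the beta genes (0% to 31.3%), 23.9% in the gamma B genes and 2.61% in the gamma A genes. In all 5 C-type genes it was 0%. The length of the first coding exon ran from 2316 to 2562 bp over the 57 members.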
